A study of Mus musculus with 6 samples.

Results

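The 49 genes described here encode structural parts of the division machinery of the mouse egg: kinesins, proteins of the kinetochore, and proteins of the spindle pole and spindle microtubules. They were taken by their symbols from a table of read counts for 24062 genes, and all 49 were found. The study asked what single residues of histone H3.3 do in the egg. Eggs at metaphase of the second meiotic division (MII eggs) came from superovulated 8-week-old females of the mouse line HISRainbow;Figla-iCre, in which a Cre driven by Figla, an oocyte gene, acts in the oocyte. The 3 groups of 2 libraries differed in which tagged histone the eggs carried, read from its colour by confocal microscopy. K27R eggs carried H3.3 with lysine 27 changed to arginine, tagged with mCherry. R26K eggs carried H3.3 with arginine 26 changed to lysine, tagged with eCFP. H3.3 eggs carried unmutated H3.3 tagged with eGFP and served as controls. Each substitution came with its own fluorescent tag, so that substitution and tag cannot be told apart, and no group without a tagged histone was analysed here. How many eggs or females went into a library is not given in the labels, which call the libraries biological replicates, and p-values here cover only the differences among these 6 libraries.

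The MII egg waits for fertilisation with its chromosomes held on a metaphase spindle that has no centrioles. Kinetochores are built on centromeres in layers: an inner layer of CENP proteins on chromatin that holds CENP-A, the centromeric histone H3 variant, and an outer layer of the MIS12 and NDC80 complexes that binds microtubules. Kinesins slide, depolymerise and cross-link the microtubules and move chromosomes along them, while pericentrin, gamma-tubulin and their partners nucleate microtubules at the poles. The egg does not transcribe its genome, so its mRNA was made during oocyte growth, stored, and in part translated or degraded during maturation. Elements near the 3′ end that bind CPEB are known in oocytes to control the poly(A) tail and the translation of such mRNAs.

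The 3′ ends of 7 of the genes are printed because the cDNA of these libraries was primed on poly(A) tails, and because 5 of the 7 are genes on which the comparisons turn (Kif18a, Cenpn, Nusap1, Kif2a and Pcnt). Kif20b and Ckap5 are shown as other examples that hold a CPEB-type element beside the polyadenylation signal. Each sequence is 30 bases of the 3′ untranslated region of the main GENCODE M21 transcript (GRCm38), 5′ to 3′ on the strand of the gene, and ends with the signal AATAAA or ATTAAA in capitals. A TTTTAT or TTTTAAT upstream of the signal is also in capitals.
Kif18a: tgctaataTTTTATtacttggtatATTAAA
Cenpn: gaaactgagcatcactgatctgtgAATAAA
Nusap1: ttctatttgtatatactataagtcAATAAA
Kif2a: tgaataaaagtaacgtcttcatacAATAAA
Pcnt: tttattctTTTTATtggcaaaacaAATAAA
Kif20b: gtatcttgtatataaTTTTAATtcAATAAA
Ckap5: caactaatttaagagacTTTTATaAATAAA
The last 100 bases of the main transcript were searched on the strand of the gene for TTTTAT or TTTTAAT and for AATAAA or ATTAAA, letting the matches share bases. Of the 47 members that could be searched, 11 (23.4%) held TTTTAT or TTTTAAT, against 21.3% of the 9334 tested genes that could be searched. The signal was found in 41 of the 47 (87.2%), against 82.4% of those genes. The 11 were Kif11, Kif18a, Kif20b, Kifc1, Cenph, Cenpn, Ndc80, Cenpe, Ckap5, Pcnt and Tubgcp3; the element of Cenpn lies upstream of the window printed above. The members thus held these letters about as often as other genes did.

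Total counts were 11557291 and 10803477 in the K27R libraries, 39603440 and 33786225 in the R26K libraries, and 12748821 and 11452906 in the H3.3 libraries. Libraries also differed in how completely they detected low genes: of the genes at 10 to 20 CPM (read counts scaled to a common library total) on average in the other libraries, 5.62% and 33.7% had no count in the K27R libraries, 1.69% and 1.31% in the R26K libraries, and 32.2% and 35.8% in the H3.3 libraries. Thinning every library to the smallest total left the number of members with a count as it was, 47 and 39 in K27R, 49 and 47 in R26K, and 42 and 40 in H3.3. Markers of the egg were present in every library, 17 or 18 of 18, with summed levels of 57980 to 77100 CPM. Cumulus and granulosa cells lie around the egg, and of 32 of their markers 19 and 5 were counted in K27R, 22 and 18 in R26K, and 7 and 15 in H3.3. Their summed levels were 2014 and 1416 CPM in K27R, 2111 and 2058 CPM in R26K, and 1021 and 1895 CPM in H3.3, most of it from Serpine2. Lhcgr, Areg, Ereg, Cd44 and Pgr were among the genes of that list with no count in any library. Others were present and uneven between replicates. Tnfaip6 had 86.74 and 0 CPM in K27R, 29.36 and 11.02 CPM in R26K, and 0 and 186.1 CPM in H3.3. Inha had 82.84 and 0 CPM in K27R, 25.27 and 53.44 CPM in R26K, and 0 and 97.32 CPM in H3.3. Of 33 blood, immune, stromal and epithelial markers, 7 to 9 had a count in each library, and their sums were 423.4 and 338.1 CPM in K27R, 410.4 and 368.3 CPM in R26K, and 407.6 and 263.6 CPM in H3.3. Most of each sum came from Cdh1 and Pecam1, while Ptprc and Lyz2 were among the genes of that list with no count in any library. In bulk RNA, fewer cells of a type and less RNA per cell cannot be told apart.

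**Figure D1:**
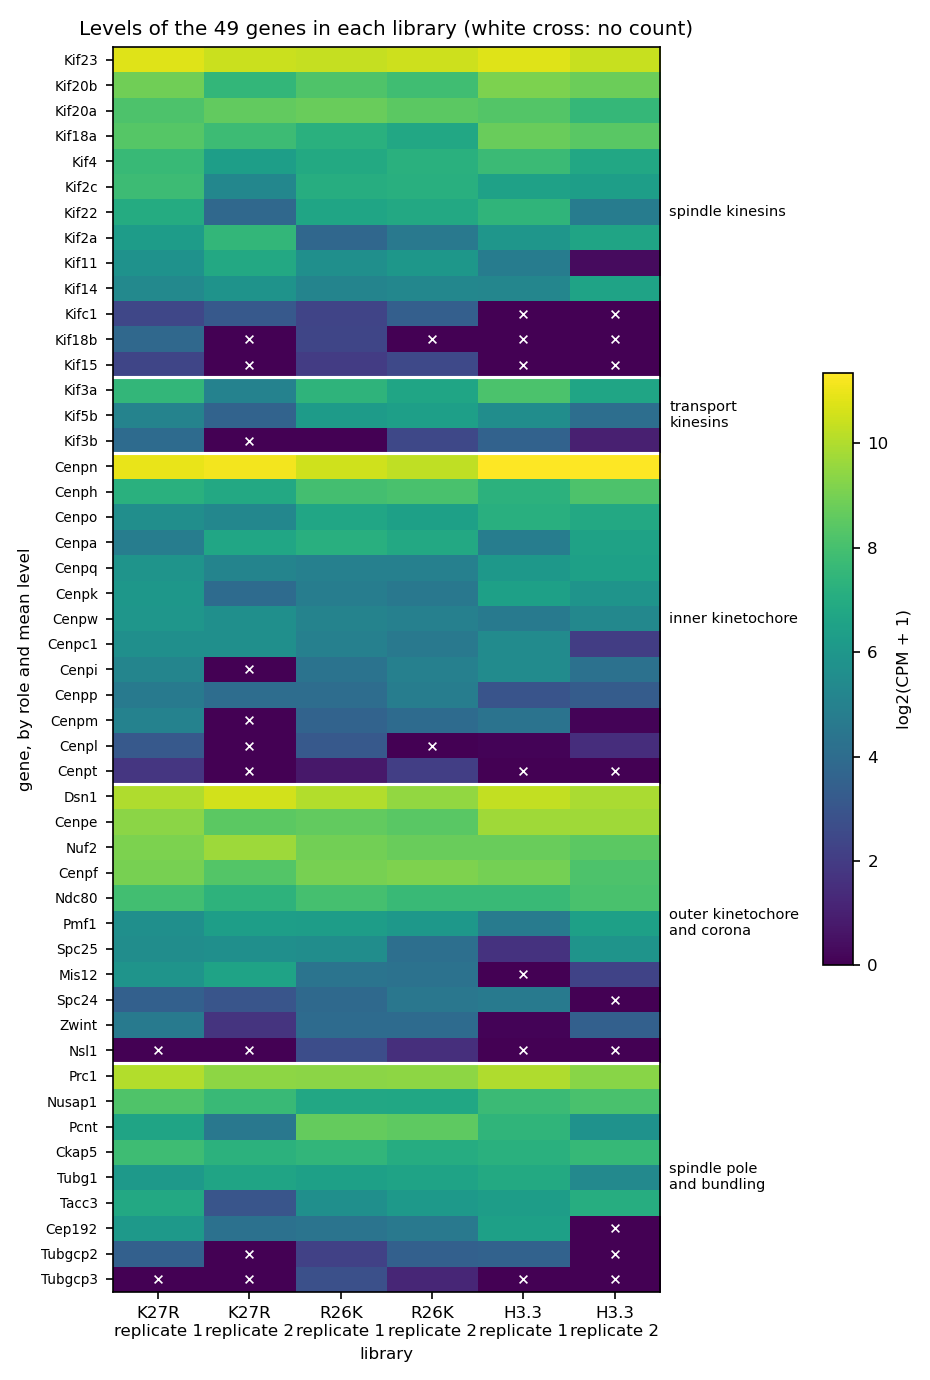
Colour gives log2(CPM + 1) of each of the 49 genes (rows, grouped by role and ordered by mean level) in the 6 libraries (columns); a white cross marks a gene without a count. Kif23, Cenpn, Dsn1 and Prc1 are bright in every library, and the crosses lie mostly in K27R replicate 2 and in both H3.3 libraries.

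The members took up 1.22% and 0.974% of all counts in the K27R libraries, 0.88% and 0.848% in the R26K libraries, and 1.26% and 1.06% in the H3.3 libraries. Levels below are CPM, with library totals scaled by edgeR's TMM method. Levels are compared between genes only as CPM per kilobase (kb) of the main transcript. On that scale, as a mean over the 6 libraries, Cenpn (1146 CPM per kb) stood highest, followed by Kif23 (442.3), Dsn1 (412.2), Prc1 (261.8), Nuf2 (213.1) and Cenph (162.6). Of the 49, 11 were in the top 10% of the 10168 tested genes with a length, 28 in the top 25% and 38 in the upper 50%. The lowest were Tubgcp3 (0.3128 CPM per kb) and Nsl1 (0.2493 CPM per kb).

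Among the spindle kinesins, Kif23, the motor subunit of centralspindlin that builds the central spindle at cytokinesis, had 1777 and 1373 CPM in K27R, 1319 and 1420 CPM in R26K, and 1784 and 1344 CPM in H3.3. Its highest library was only 1.35 times its lowest, the narrowest range of the members with a count in every library. Kif18a, which dampens the movements of chromosomes and aligns them at metaphase, had 328.3 and 218.4 CPM in K27R, 147.1 and 111.8 CPM in R26K, and 427 and 351.3 CPM in H3.3. The 3 groups of Kif18a did not overlap, with R26K lowest and H3.3 highest. Kif2a, which depolymerises microtubules at the spindle poles, had 76.01 and 181.2 CPM in K27R, 12.74 and 23.31 CPM in R26K, and 60.38 and 98.59 CPM in H3.3. Both R26K libraries lay below the other 4. Kif2c (MCAK), its relative at centromeres, had 219.6 and 36.81 CPM in K27R, 133.2 and 142.2 CPM in R26K, and 88.85 and 80.01 CPM in H3.3, with the K27R libraries on either side of all others.

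Kif20a, which carries the chromosomal passenger complex to the central spindle, had 284 and 388.5 CPM in K27R, 427.5 and 362.8 CPM in R26K, and 315.5 and 184.6 CPM in H3.3. Kif20b, a kinesin of the midzone and of cytokinesis, had 478.5 and 180.8 CPM in K27R, 299.4 and 232.7 CPM in R26K, and 544.7 and 443.2 CPM in H3.3. The R26K libraries lay above both H3.3 libraries for Kif20a and below both for Kif20b, while K27R overlapped both other groups. The chromokinesin Kif4, a partner of Prc1, had 196.2 and 80.08 CPM in K27R, 119.1 and 147.1 CPM in R26K, and 214.7 and 110.2 CPM in H3.3. Kif22 (Kid), the other chromokinesin, which pushes chromosome arms outward, had 125 and 13.28 CPM in K27R, 99.44 and 114.7 CPM in R26K, and 173.2 and 26.56 CPM in H3.3. For both chromokinesins the R26K libraries lay inside the range of the others. Kif11, the motor that pushes spindle poles apart, had 54.46 and 113.4 CPM in K27R, 49.48 and 64.13 CPM in R26K, and 26.33 and 0.2545 CPM in H3.3, so that the H3.3 libraries were the lowest 2 of the 6. Kif14, a kinesin of the midbody, had 39.91 and 56.07 CPM in K27R, 33.83 and 37.62 CPM in R26K, and 35.74 and 94.44 CPM in H3.3.

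The remaining spindle kinesins were low. Kifc1, the minus-end-directed motor that focuses spindle poles, had 4.308 and 7.97 CPM in K27R, 4.067 and 9.964 CPM in R26K, and no count in either H3.3 library. It is 96.8% identical to its copy Kifc5b over 2312 bases, so that the split of reads between them is uncertain; Kifc5b had 89 and 20 counts in K27R, 16 and 86 in R26K, and 1 and 45 in H3.3. Kif15, a motor that helps hold spindles bipolar, ranged from 0 to 4.68 CPM and had a count in 3 libraries. Kif18b, a motor of microtubule plus ends, ranged from 0 to 13.25 CPM and had a count in 2 libraries.

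The transport kinesins carry cargo along microtubules rather than build the spindle. Kif3a, a subunit of the heterotrimeric transport kinesin, had 180.5 and 31.79 CPM in K27R, 163 and 101.4 CPM in R26K, and 279.5 and 99.78 CPM in H3.3. Kif5b, the heavy chain of conventional kinesin, had 33.09 and 11.2 CPM in K27R, 74.91 and 82.7 CPM in R26K, and 46.91 and 16.21 CPM in H3.3, with both R26K libraries above the other 4. Kif3b, the partner of Kif3a, ranged from 0 to 14.63 CPM and had a count in 5 libraries.

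In the inner kinetochore, Cenpn, which binds CENP-A nucleosomes, had 1979 and 2283 CPM in K27R, 1495 and 1236 CPM in R26K, and 2601 and 2568 CPM in H3.3. The 3 groups did not overlap, in the same order as for Kif18a. Cenpo, part of the CENP-O, P and Q group, had 47.64 and 37 CPM in K27R, 103 and 87.44 CPM in R26K, and 140.9 and 113.7 CPM in H3.3. Here too the 3 groups did not overlap, but K27R was lowest. Cenph, of the CENP-H, I, K and M group, had 144.7 and 113.3 CPM in K27R, 244.4 and 274.9 CPM in R26K, and 156.5 and 286.3 CPM in H3.3, with the K27R libraries the lowest 2.

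Cenpa, the histone variant itself, had 27.07 and 103.6 CPM in K27R, 140.1 and 115.7 CPM in R26K, and 27.09 and 92.06 CPM in H3.3. Both R26K libraries lay above the other 4, but the replicates of K27R and of H3.3 lay far apart. Cenpc1 (CENP-C), which links the centromere to the outer kinetochore, had 48.94 and 48.67 CPM in K27R, 29.28 and 23.16 CPM in R26K, and 43.54 and 3.139 CPM in H3.3. Cenpq had 57.88 and 33.68 CPM in K27R, 29.55 and 29.26 CPM in R26K, and 64.82 and 86.8 CPM in H3.3, again 3 groups without overlap and R26K lowest. Its partner Cenpp had 23.49 and 15.85 CPM in K27R, 15.83 and 27.14 CPM in R26K, and 6.734 and 8.909 CPM in H3.3, with both H3.3 libraries lowest. Cenpw, which with CENP-T forms a histone-fold pair at the centromere, had 60.81 and 49.15 CPM in K27R, 32.91 and 29.38 CPM in R26K, and 24.26 and 37.93 CPM in H3.3. Both K27R libraries of Cenpw lay above the other 4.

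Cenpk had 63 and 14.52 CPM in K27R, 27.08 and 22.25 CPM in R26K, and 85.79 and 57.53 CPM in H3.3. Cenpi had 34.96 and 0 CPM in K27R, 19.17 and 29.29 CPM in R26K, and 43.31 and 17.82 CPM in H3.3. Cenpm had 31.38 and 0 CPM in K27R, 11.14 and 14.67 CPM in R26K, and 18.98 and 0.08485 CPM in H3.3. All 3 belong with Cenph to one group of kinetochore proteins, and for each of them 1 K27R library was the lowest of the 6 while the other lay among the 2 highest. Cenpl, the partner of Cenpn, ranged from 0 to 7.998 CPM and had a count in 4 libraries. Cenpt, the partner of Cenpw, ranged from 0 to 3.351 CPM and had a count in 3 libraries.

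In the outer kinetochore, the microtubule-binding NDC80 complex is made of Ndc80, Nuf2, Spc24 and Spc25. Nuf2 had 551 and 817 CPM in K27R, 493.5 and 427.9 CPM in R26K, and 428.9 and 357.3 CPM in H3.3, with both K27R libraries above the other 4. Ndc80 had 236.5 and 162 CPM in K27R, 257.8 and 202.8 CPM in R26K, and 205 and 269.7 CPM in H3.3, without separation of any group. Spc25 had 46.42 and 48.58 CPM in K27R, 45.52 and 16.88 CPM in R26K, and 2.143 and 57.61 CPM in H3.3. Spc24 had 10.24 and 6.926 CPM in K27R, 13.85 and 21.71 CPM in R26K, and 24.95 and 0 CPM in H3.3. For Spc24 and Spc25 the H3.3 libraries were the lowest and the highest of all 6.

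The MIS12 complex joins NDC80 to the inner kinetochore. Dsn1 had 1023 and 1514 CPM in K27R, 1041 and 732.5 CPM in R26K, and 1248 and 961.2 CPM in H3.3, with all groups overlapping. Mis12 had 57.72 and 95.55 CPM in K27R, 19.38 and 18.6 CPM in R26K, and 0 and 3.903 CPM in H3.3, so that the groups stood apart with H3.3 lowest. Pmf1 had 49.42 and 80.55 CPM in K27R, 78.76 and 65.97 CPM in R26K, and 25.18 and 85.7 CPM in H3.3. Nsl1 ranged from 0 to 5.395 CPM and had a count only in the 2 R26K libraries, the deepest of the 6. Zwint, which binds the outer scaffold protein KNL1, had 23.82 and 2.277 CPM in K27R, 14.53 and 14.55 CPM in R26K, and 0.07653 and 10.27 CPM in H3.3.

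Of the corona, Cenpe, the kinesin that carries chromosomes to the spindle equator, had 670.8 and 353.5 CPM in K27R, 389 and 343.6 CPM in R26K, and 842.9 and 840.8 CPM in H3.3. Both H3.3 libraries lay above the other 4. Cenpf, a large microtubule-binding protein of the corona, had 510.9 and 316.1 CPM in K27R, 518.2 and 561.3 CPM in R26K, and 498.8 and 291.4 CPM in H3.3, with both R26K libraries highest.

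At the spindle pole, Pcnt (pericentrin), the scaffold of the microtubule organising centres, had 98.61 and 22.39 CPM in K27R, 405.9 and 368.3 CPM in R26K, and 170.1 and 54.22 CPM in H3.3. Both R26K libraries lay above the other 4. Nusap1, which bundles microtubules near chromosomes, had 293.9 and 205.5 CPM in K27R, 110.6 and 106.1 CPM in R26K, and 211.4 and 275.2 CPM in H3.3. Both R26K libraries lay below the other 4, and K27R and H3.3 overlapped. Prc1, which cross-links antiparallel microtubules, had 1045 and 688.9 CPM in K27R, 669.1 and 687.9 CPM in R26K, and 1017 and 645.2 CPM in H3.3, with both K27R and R26K overlapping H3.3.

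Ckap5, a microtubule polymerase, had 228.2 and 154.6 CPM in K27R, 177.1 and 128.1 CPM in R26K, and 145.7 and 191.2 CPM in H3.3. Its partner Tacc3 had 115.5 and 6.926 CPM in K27R, 49.77 and 68.69 CPM in R26K, and 77.45 and 133.3 CPM in H3.3. Cep192, which recruits mitotic kinases to the pole, had 67.15 and 17.65 CPM in K27R, 19.36 and 23.07 CPM in R26K, and 86.55 and 0 CPM in H3.3. All groups of Ckap5 overlapped; the K27R libraries of Tacc3, and the H3.3 libraries of Cep192, spanned nearly the whole range. Tubg1, gamma-tubulin, had 66.9 and 99.25 CPM in K27R, 87.19 and 95.5 CPM in R26K, and 116.8 and 39.88 CPM in H3.3. Its complex partners were low: Tubgcp2 ranged from 0 to 10.79 CPM with a count in 4 libraries, and Tubgcp3 from 0 to 5.829 CPM with a count only in the 2 R26K libraries.

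**Figure D2:**
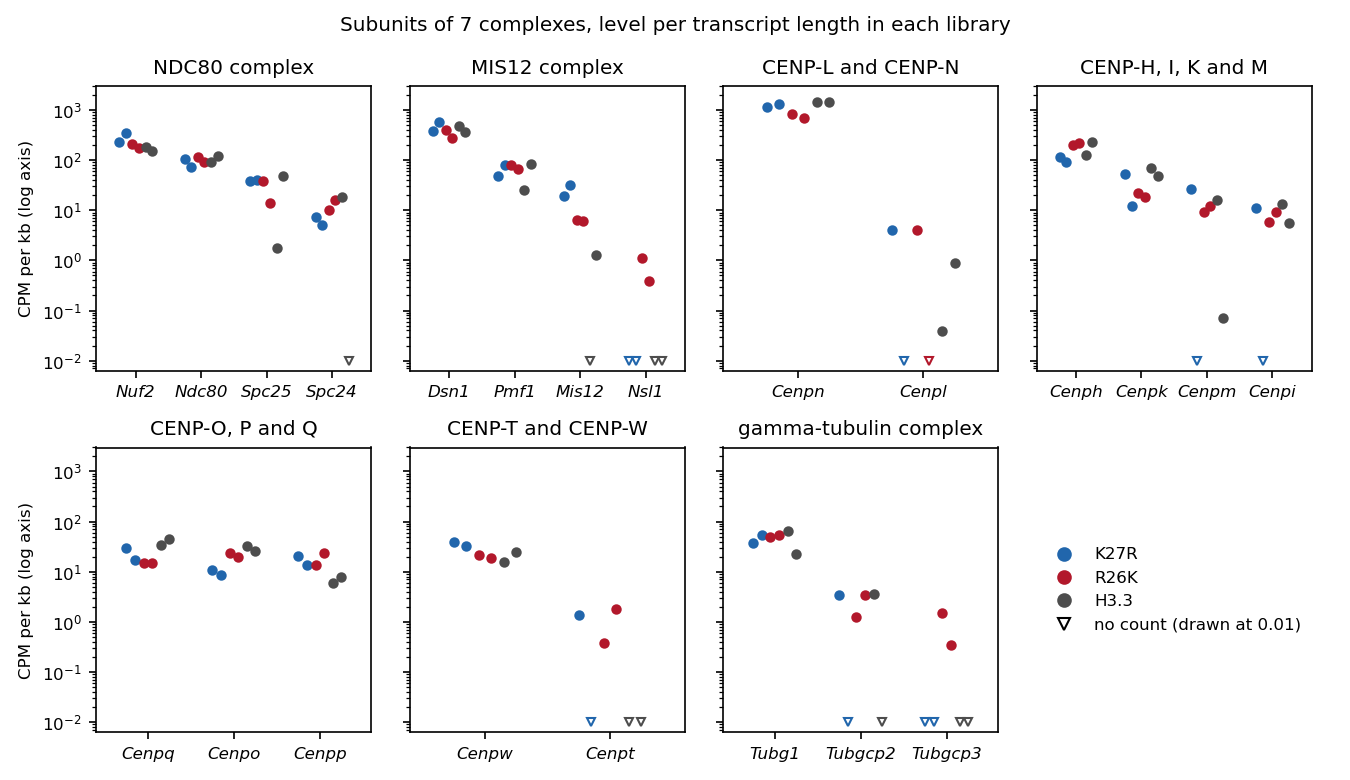
Level of each subunit as CPM per kb of transcript (log axis) in the 6 libraries, for 7 complexes, with subunits ordered by their mean; open triangles at the bottom mark libraries without a count. Cenpn and Cenpl, and Dsn1 and Nsl1, lie far apart in every library, whereas Cenpq, Cenpo and Cenpp overlap.

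Subunits that act together in 1 complex could differ widely in mRNA level. The highest and the lowest subunit of each complex were picked by their mean over these same 6 libraries. Their ratios, and the counts of libraries, thus follow in part from that choice and were not tested. Of the subunits between, Ndc80 had 101 CPM per kb, Spc25 30.31, Pmf1 63.82 and Mis12 10.83. Cenpk had 37, Cenpm 10.57, Cenpo 20.3 and Tubgcp2 1.959 CPM per kb. Per kb, Nuf2 averaged 213.1 CPM, against 9.478 CPM for Spc24 of the same complex, a ratio of 22.5, and Nuf2 was the higher in 6 of 6 libraries. In the MIS12 complex, Dsn1 averaged 412.2 CPM per kb, against 0.2493 CPM per kb for Nsl1, again higher in 6 of 6 libraries. Cenpn averaged 1146 CPM per kb, against 1.481 CPM per kb for Cenpl, in 6 of 6 libraries. Each of these gaps was wider than that between any replicates of Nuf2, Dsn1 or Cenpn, the higher subunits. The lower subunits were less steady. Spc24 fell from 18.26 CPM per kb in H3.3 replicate 1 to no count in replicate 2, although its replicates lay closer in the other groups. Cenpl fell from 4.007 CPM per kb in R26K replicate 1 to no count in replicate 2. For Spc24 and Cenpl the gaps were thus not shown to exceed the spread of their own replicates. Cenph exceeded Cenpi 21.8-fold and Cenpw exceeded Cenpt 42.4-fold, each in 6 of 6 libraries. Between the K27R replicates, Cenpi fell from 10.83 CPM per kb to no count and Cenpt from 1.389 CPM per kb to no count. These gaps too were thus not shown to exceed the spread of the lower subunit. Tubg1 exceeded Tubgcp3 in 6 of 6, by 31.5-fold and 155-fold in the 2 libraries with a count for Tubgcp3, and Dsn1 exceeded Nsl1 357-fold and 713-fold in the 2 with a count for Nsl1. The CENP-O, P and Q group had the smallest ratio, 1.82 between Cenpq and Cenpp, with Cenpq higher in 5 of 6 libraries. The lowest subunit lacked a count in 4 of 6 libraries for Nsl1 and Tubgcp3, and in 1 of 6 for Spc24 and Cenpi. Cenpt had a count in only 3 of 6 libraries and Cenpl in 4 of 6. The part of detection and of poly(A) priming in the ratios was not tested.

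Replicates bounded what could be seen. Among the 40 members with a mean of at least 10 CPM, the replicates differed by a median of 0.69 on the log2 scale in K27R, 0.25 in R26K and 0.77 in H3.3. They differed more than 2-fold for 16 members in K27R, for 1 (Spc25) in R26K and for 17 in H3.3. The widest gap was 5.17 for Cenpi in K27R, 1.38 for Spc25 in R26K and 6.45 for Cep192 in H3.3. The same medians over the 6142 genes at these levels were 0.86, 0.33 and 1.01, so that by these medians the members were spread no more than other genes of such levels were.

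R26K against H3.3 sets the stored mRNA of eggs with arginine 26 changed and the eCFP tag against that of eggs with unmutated H3.3 and the eGFP tag. The members with the smallest p were all lower in R26K: Kif18a, Cenpn, Cenpe, Nusap1 and Kif2a, which align chromosomes, build the centromere, carry chromosomes, bundle microtubules and shorten them at the poles. None passed the test that edgeR's quasi-likelihood fit makes across all 10667 tested genes at an adjusted p of 0.05, which called 0.619% of these genes. Without adjustment, 3 members were higher and 5 lower at p under 0.05, against 17.6% and 4.14% of all tested genes. In 15 members (30.6%) both R26K libraries lay above both H3.3 libraries and in 10 (20.4%) below, against 44.8% and 15.3% of all tested genes. Those 15 include Kifc1, Kif15, Cenpt, Nsl1 and Tubgcp3, without a count in H3.3. For Nsl1 and Tubgcp3, counted only in R26K, that place was fixed. Kif15 and Cenpt had a count outside R26K in 1 library only, K27R replicate 1, so that they too needed R26K counts to pass the filter on low counts. Their direction was thus fixed as well and supports nothing. At a mean of at least 10 CPM, 25% of members lay above and 25% below, against 35.9% and 23.1% of genes. At an unadjusted edgeR p under 0.05, 0% were higher and 12.5% lower there, against 13.5% and 7.08%. The median log2 fold change of the 49 was 0.17, with 28 above and 21 below 0, against 0.66 over all tested genes. It was also 0.17 with the 6 members that lacked a count in 1 of the groups set to their bound. Over the 40 members of at least 10 CPM it was -0.02, with 20 above and 20 below, against 0.08.

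Kif18a averaged 3.01-fold lower in R26K (log2 fold change -1.59 ± 0.35 SE, edgeR adjusted p = 0.119, 2 libraries each). Its gene lies at chr2:109280738-109341747 (GRCm38, plus strand) and shares 11 exonic bases with Mettl15 on the opposite strand. Cenpn (chr8:116921730-116941507, plus strand) was 1.89-fold lower (log2 fold change -0.92 ± 0.21, edgeR adjusted p = 0.127). Both had R26K libraries apart from the 4 others. Cenpe (chr3:135212537-135273611, plus strand) was 2.30-fold lower (log2 fold change -1.20 ± 0.35, edgeR adjusted p = 0.204), and Nusap1 (chr2:119618298-119651244, plus strand) 2.25-fold (log2 fold change -1.17 ± 0.34, edgeR adjusted p = 0.207). Kif2a (chr13:106958996-107022126, minus strand) was 4.41-fold lower (log2 fold change -2.14 ± 0.72, edgeR adjusted p = 0.213). Nusap1 and Kif2a overlap exons on the opposite strand, of Oip5 over 172 bases and of Dimt1 over 1229 bases, and the library kit does not mark strand. Other members have such overlaps too, such as Kif20a with Cdc23 over 1271 bases and Prc1 with Rccd1 over 911 bases.

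In the other direction, Pcnt (chr10:76351263-76442786, minus strand) averaged 3.45-fold higher in R26K (log2 fold change 1.79 ± 0.82, edgeR adjusted p = 0.252). Its exons overlap those of the antisense gene 1700094J05Rik over 379 bases, and those of AC141477.1 on the same strand over 115 bases. The 3 members higher at an unadjusted p under 0.05 were Kifc1, Nsl1 and Tubgcp3, none of which had a count in H3.3. Nsl1 and Tubgcp3 passed the filter on low counts only through the R26K libraries, so that their direction was fixed and their place in that count supports nothing. Against a floor of 3 counts per library, Kifc1 was at least 29.0-fold higher in R26K. With the counts of Kifc1 and its copy Kifc5b summed, a step added after the data were seen, the means differed 4.38-fold (4.5 and 12.6 CPM in R26K, against 0.0765 and 3.82 CPM in H3.3). For the abundant Kif23, Dsn1, Prc1 and Ndc80 the R26K and H3.3 libraries overlapped. R26K libraries were the deepest and missed the fewest low genes, as given above, a difference that moves with this comparison. With all totals thinned to the smallest, Kif18a had a log2 fold change of -1.58 and Cenpn of -0.98, and edgeR called no member. Thinning left the gap in detection, with 11719 and 11785 genes counted in R26K, against 7507 and 7358 in H3.3, whose part in the fold changes was not tested. With the correction for GC content and length, the log2 fold change of Kif18a was -0.85 and that of Pcnt 0.75. Pcnt also moved to 2.83 without H3.3 replicate 1 and to 1.19 without H3.3 replicate 2.

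DESeq2, run on the same genes as an alternative, called 5 members lower in R26K, namely Kif18a (adjusted p = 0.000356), Cenpn (adjusted p = 0.000145), Cenpe (adjusted p = 0.00487), Nusap1 (adjusted p = 0.0139) and Kif2a (adjusted p = 0.025). It called 1 higher, Kifc1 (adjusted p = 0.014). It called 13.8% of the genes it adjusted higher and 4.84% lower, so that both the member counts and these shares depend on the tool. Of the 45 members with an adjusted p from DESeq2, those 5 lower are a larger share than the background's, and the 1 higher a smaller one. That background was not matched for level, and the contrast was not tested.

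**Figure D3:**
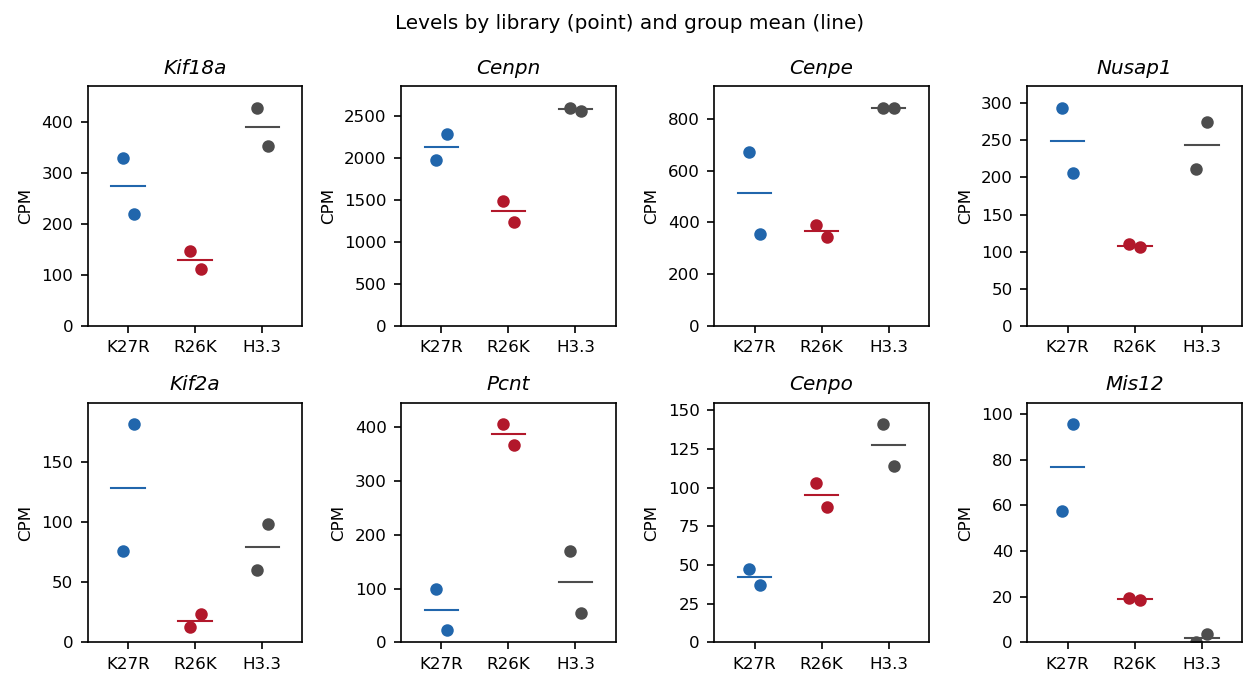
CPM of 8 genes in each library (points), with the mean of each group as a line; each panel has its own axis from 0. In R26K both points of Kif18a, Cenpn, Nusap1 and Kif2a lie below the other 4 and both of Pcnt above them; in K27R both points of Cenpo lie lowest and both of Mis12 highest.

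K27R against H3.3 does the same for eggs with lysine 27 changed and the mCherry tag. Lysine 27 is a residue that is methylated by Polycomb and acetylated in other settings. Cenpo was lower, and Nuf2 and Mis12 were higher, in both K27R libraries than in both H3.3 libraries, but no gene of the table passed edgeR's adjusted p of 0.05 (0%). Without adjustment, 2 members (Kifc1 and Nuf2) were higher and 1 (Cenpo) lower at p under 0.05, against 6.05% and 1.07% of all tested genes. In 7 members (14.3%) both K27R libraries lay above both H3.3 libraries and in 6 (12.2%) below, against 15.9% and 9.62%. At a mean of at least 10 CPM, 15% of members lay above and 15% below, against 16.8% and 13.7% of genes. These shares of members are near the background. The median log2 fold change was 0.06, with 27 above and 20 below 0, against 0.12 over all tested genes, and it was 0.06 with 6 members at their bound. Over the 40 members of at least 10 CPM it was 0.02, against 0.01.

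Cenpo (chr12:4196004-4234294, minus strand) averaged 3.01-fold lower in K27R (log2 fold change -1.59 ± 0.48, edgeR adjusted p = 0.522). Its exons overlap those of Adcy3 over 1380 bases and of Ptrhd1, on the opposite strand. Nuf2 (chr1:169497934-169531464, minus strand) was 1.74-fold higher (log2 fold change 0.80 ± 0.29, edgeR adjusted p = 0.522). Mis12 (chr11:71019611-71027371, plus strand) was 39.3-fold higher on average (log2 fold change 5.29 ± 2.22, edgeR adjusted p = 0.522), with 1 H3.3 library at 0. The log2 fold change was 4.30 without H3.3 replicate 1 and 13.66 without H3.3 replicate 2, where no H3.3 count is left and the value is no bound, so that its size rests on the counts of 1 library. Mis12 shares 231 exonic bases with Derl2 on the opposite strand. Cenpe (log2 fold change -0.72 ± 0.34) and Cenph (-0.78 ± 0.39) were lower in both K27R libraries. Leaving out 1 library moved Cenpe to between -1.25 (without K27R replicate 1) and -0.33 (without K27R replicate 2), Cenph to -0.28 without H3.3 replicate 2, and Nuf2 to 0.49 without K27R replicate 2. Kifc1, without a count in H3.3, was at least 25.4-fold higher in K27R, but with Kifc5b summed in the means differed 5.50-fold (11.5 and 9.87 CPM in K27R, against 0.0765 and 3.82 CPM in H3.3). DESeq2 called Mis12 (adjusted p = 0.0345) and Kifc1 (adjusted p = 0.0322) higher and Cenpo (adjusted p = 0.0196) lower, 3 of 45 members, against 5.91% of the genes it adjusted called higher and 1.69% lower.

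**Figure D4:**
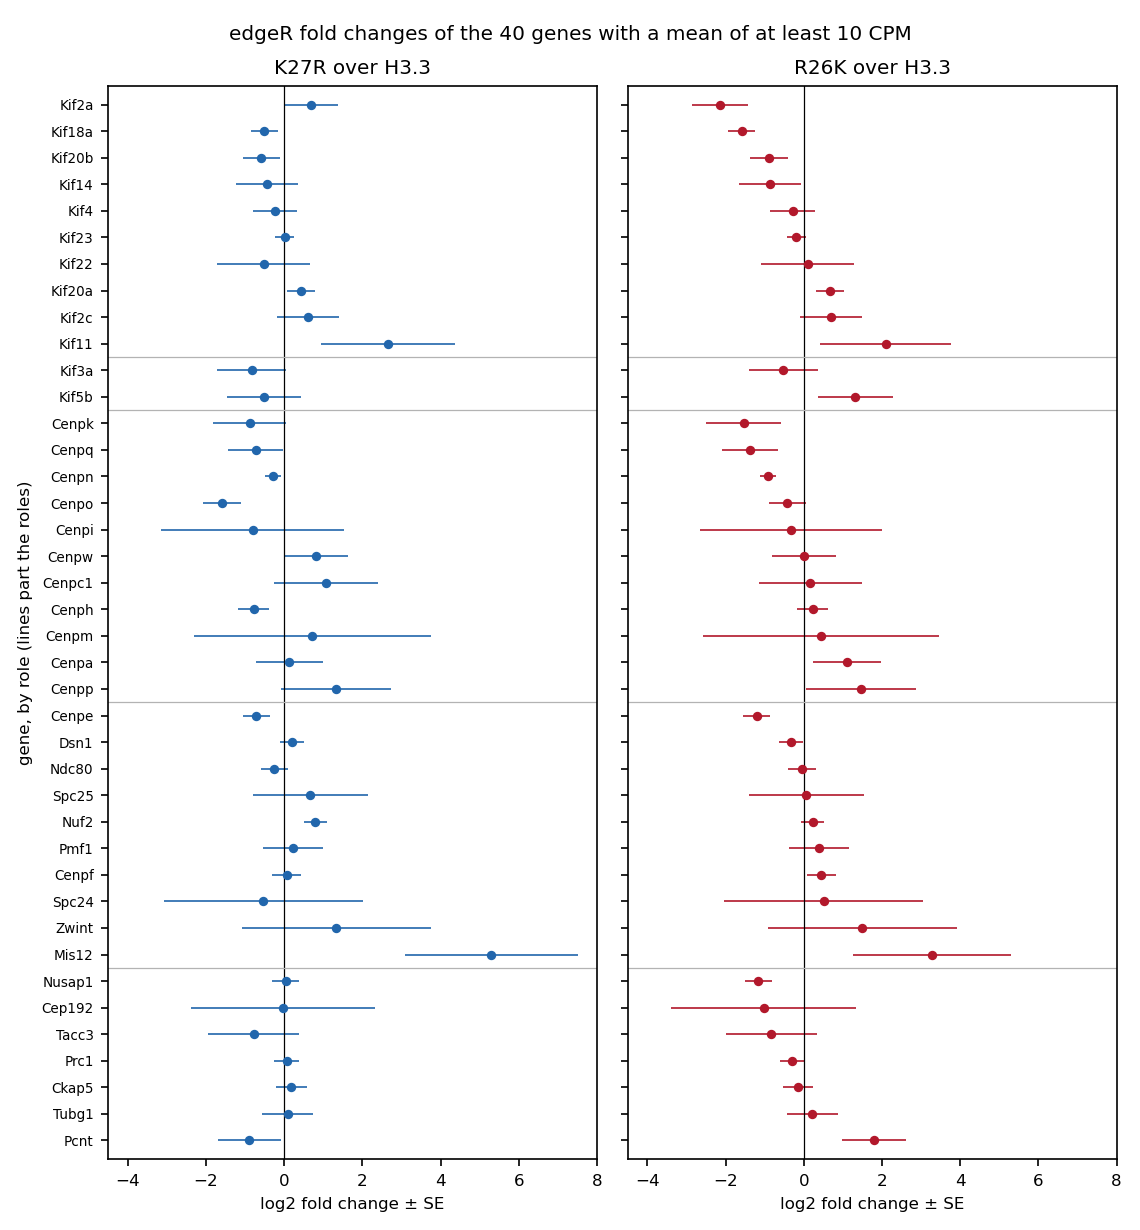
edgeR log2 fold change (points) with its SE (bars) for the 40 members with a mean of at least 10 CPM, K27R over H3.3 on the left and R26K over H3.3 on the right, in the same gene order by role. Most bars reach 0, and those clear of it lie on both sides. In the R26K panel Kif18a, Cenpn, Cenpe, Nusap1 and Kif2a are among those on the left, and Pcnt, Mis12 and Kif20a among those on the right. In the K27R panel Cenpo, Cenpe and Cenph are among those on the left, and Nuf2 and Mis12 among those on the right. The panels share the H3.3 libraries.

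K27R against R26K sets the substitutions of these neighbouring residues, each with its own tag, side by side. Kif2a, Nusap1, Kif18a and Cenpn were higher, and Pcnt, Cenph and Cenpo lower, in both K27R libraries than in both R26K libraries. No member passed edgeR's adjusted p of 0.05, which called 0.375% of all tested genes. Without adjustment, 4 were higher and 5 lower at p under 0.05, against 3.43% and 9.82%. In 12 members (24.5%) both K27R libraries lay above both R26K libraries and in 9 (18.4%) below, against 17.5% and 36.3%. Those 9 include Nsl1 and Tubgcp3, counted only in R26K, for which that place was fixed. At a mean of at least 10 CPM, 30% of members lay above and 17.5% below, against 24.7% and 33.6% of genes. At an unadjusted edgeR p under 0.05, 10% were higher and 7.5% lower there, against 5.8% and 8.43%. The median log2 fold change was 0.05, with 25 above and 24 below 0, against -0.32 over all tested genes; with 2 members at their bound it was 0.05. Over the 40 members of at least 10 CPM it was 0.24, against -0.09. This comparison shares its libraries with the other 2, so that low R26K values enter both.

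Kif2a averaged 7.14-fold higher in K27R (log2 fold change 2.83 ± 0.74, edgeR adjusted p = 0.244), and Nusap1 2.30-fold (log2 fold change 1.20 ± 0.34, edgeR adjusted p = 0.298). Kif18a was 2.11-fold higher (log2 fold change 1.08 ± 0.34) and Cenpn 1.56-fold (log2 fold change 0.64 ± 0.21), both with an edgeR adjusted p of 0.346. With the correction for GC content and length, Kif18a was at 0.40 and Cenpo at -0.55. Pcnt was 6.40-fold lower in K27R (log2 fold change -2.68 ± 0.85, edgeR adjusted p = 0.346). Without R26K replicate 2 its edgeR adjusted p was 0.0317 (log2 fold change -2.75), the only member call that leaving out a library made; the lone R26K library is then assumed to vary like those of the other groups. The log2 fold change of Pcnt was -4.11 without K27R replicate 1 and -1.97 without K27R replicate 2. Cenph (chr13:100759674-100775899, minus strand; log2 fold change -1.01 ± 0.40, edgeR adjusted p = 0.347) and Cenpo (-1.17 ± 0.48, edgeR adjusted p = 0.368) were also lower. Nsl1 and Tubgcp3 make up the other 2 of the 5 lower and had counts only in R26K, through which alone they passed the filter, so that they support nothing here. DESeq2 called Kif2a (adjusted p = 0.00373), Nusap1 (adjusted p = 0.0295) and Cenpn (adjusted p = 0.0326) higher and Pcnt (adjusted p = 0.0157) lower, against 2.9% of the genes it adjusted called higher and 5.93% lower.

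By role, in R26K against H3.3, the median log2 fold change was 0.10 for the 13 spindle kinesins, 0.17 for the 13 inner kinetochore genes, 0.38 for the 11 outer kinetochore and corona genes and -0.14 for the 9 spindle pole and bundling genes. In K27R against H3.3, it was 0.43, 0.13, 0.20 and 0.00 in the same order. The 3 transport kinesins had medians of -0.51 in K27R and -0.52 in R26K, each against H3.3. In no role did all members lie on 1 side of 0 against H3.3 in either comparison.

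Genes of the same pathways outside the 49 were counted in 4 lists: 24 tested kinetochore and centromere genes, 16 kinesins and light chains, 52 spindle pole, nucleation and microtubule genes, and 22 subunits or partners of dynein and dynactin. edgeR called none of them in any comparison, but with the replicate number as a block it called Kifc3 in R26K against H3.3 (log2 fold change 4.96, adjusted p = 0.0365). In R26K against H3.3 at an unadjusted p under 0.05, 4 were higher and 3 lower among the kinetochore genes, 4 and 0 among the kinesins, 8 and 5 among the spindle pole genes, and 2 and 2 for dynein, to be read against 17.6% and 4.14% of all tested genes. In the same order, DESeq2 called 1 and 2 of 23 genes with an adjusted p, 2 and 0 of 12, 6 and 5 of 48, and 1 and 2 of 19, against 13.8% and 4.84%. In K27R against H3.3 these counts were 1 and 0, 4 and 0, 4 and 0, and 1 and 1, against 6.05% and 1.07% of all tested genes. DESeq2 called 1 and 1, 1 and 0, 4 and 0, and 1 and 1, of as many genes as above, against 5.91% and 1.69%. In K27R against R26K they were 1 and 1, 0 and 2, 3 and 4, and 2 and 0, against 3.43% and 9.82%. DESeq2 called 1 and 0 of 22, 0 and 0 of 11, 2 and 0 of 48, and 1 and 0 of 18, against 2.9% and 5.93%.

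Of these lists, Spdl1 (Spindly), the adaptor that brings dynein to kinetochores, had 540.1 and 507.2 CPM in K27R, 290.2 and 213.1 CPM in R26K, and 613.1 and 427.4 CPM in H3.3. Its log2 fold change was -1.05 ± 0.30 in R26K against H3.3 (edgeR adjusted p = 0.204) and 1.06 ± 0.30 in K27R against R26K (edgeR adjusted p = 0.302). R26K was thus lowest, as for Kif18a, Cenpn and Nusap1, whereas it was highest for Pcnt, Kif5b, Cenpa and Cenpf. Spdl1 was named for the smallest p of its list, so that this likeness follows in part from the choice. Kifc3, a minus-end-directed kinesin, had 40.6 and 32.9 CPM in K27R, 177.7 and 175.2 CPM in R26K, and 1.91 and 11.6 CPM in H3.3, a log2 fold change of 4.70 ± 1.01 in R26K against H3.3 (edgeR adjusted p = 0.112), which was 1.52 with the correction for GC content and length. Kansl1, a chromatin regulator also found on spindle microtubules, had 69.8 and 107.3 CPM in K27R, 46.9 and 63.3 CPM in R26K, and 15.5 and 7.13 CPM in H3.3, a log2 fold change of 2.97 ± 0.81 in K27R against H3.3 (edgeR adjusted p = 0.522).

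Cdk5rap2, which anchors gamma-tubulin complexes, and Nde1, a regulator of dynein, had no count in H3.3. Cdk5rap2 was at least 202-fold higher in K27R and at least 122-fold higher in R26K than in H3.3, and Nde1 at least 211-fold and at least 186-fold. Klc1, a kinesin light chain, had 2.93 and 14.7 CPM in K27R, 53.8 and 34.5 CPM in R26K, and no count in H3.3, so that it was at least 36.4-fold higher in K27R than in H3.3. DESeq2 called Klc1, Cdk5rap2 and Nde1 in both groups against H3.3, but edgeR called none of them. The edgeR adjusted p was 0.522 for each in K27R against H3.3. In R26K against H3.3 it was 0.0848 for Cdk5rap2 and 0.0763 for Nde1. The H3.3 libraries, with K27R replicate 2, were also the ones that missed the most genes of 10 to 20 CPM, and its part in these bounds was not tested. In K27R against R26K, Mapre2, a protein of growing microtubule ends, had 203.8 and 217.3 CPM in K27R, against 73.7 and 91.6 CPM in R26K (log2 fold change 1.35 ± 0.35, edgeR adjusted p = 0.243). Dync1i2, a dynein intermediate chain, had 335.2 and 140.0 CPM in K27R, against 56.6 and 50.8 CPM in R26K (log2 fold change 2.15 ± 0.47, edgeR adjusted p = 0.165; 1.38 without K27R replicate 1). Kif1a, a neuronal transport kinesin, lacked counts in both K27R libraries, at least 7.47-fold below its mean in R26K. It had 2.47 and 1.48 CPM in R26K, and 0 and 0.0848 CPM in H3.3. Like Nsl1 and Tubgcp3 it passed the filter on low counts only through the R26K libraries. Its direction was thus fixed, and its place in the count of kinesins lower in K27R supports nothing.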

How the data were processed

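Poly(A)-primed cDNA of MII eggs (SMARTer Ultra Low kit) was made into Nextera libraries, which do not mark strand, and read as single-end 50-base reads, per the labels' protocols. The submitters' processing notes name featureCounts, SAMtools 1.3, TopHat2 2.1.0 and cutadapt 1.9.1 with build mm10; not given in the sources used here are its annotation, strand setting and treatment of reads with several hits. The authors deposited whole-number counts per gene, not normalized, for 24062 symbols in 6 libraries.

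From these deposited counts, TMM-scaled CPM were computed, and edgeR 4.0.16 (filterByExpr with the group, glmQLFit, glmQLFTest, R 4.3.3) was fitted to 10667 genes over all 6 libraries with 3 group means (residual degrees of freedom: 3; common dispersion: 1.63). Two-sided p-values were adjusted with the Benjamini-Hochberg method over those 10667 genes, and 0.05 was the threshold. Each SE was taken as the size of the log2 fold change over the square root of F. DESeq2 1.42.0, other scalings, filters and fits, thinning, libraries left out, and a GC and length correction were tried as alternatives, and the scripts were tested on simulated data. For a group without counts, a bound was computed against 3 counts per library, a limit that covers counting error only (0.0813 to 0.285 CPM, from the largest library to the smallest). Transcript lengths, positions, overlaps and 3′ ends came from GENCODE M21, GRCm38, the same assembly as mm10; all 49 members matched, as did 22710 of the 24062 symbols. All 49 members passed the filter. Members with a mean of at least 10 CPM are given in every library, the others by range, and the pathway lists by called members or else the smallest p. The members and lists were chosen with earlier results of these data known.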

Additional observations from a re-analysis of the deposited data

How the results depend on the processing

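edgeR called 0 of the 49 members in each comparison, and this held under another scaling, another filter, a fit of only the 2 groups compared and thinning to the smallest library. DESeq2 called 1 member higher and 5 lower in R26K against H3.3, 2 and 1 in K27R against H3.3, and 3 and 1 in K27R against R26K; the cause was not tested. Leaving out a library in turn gave 0 to 1 members called lower in K27R against R26K (Pcnt, without R26K replicate 2) and moved the median of that comparison, 0.05 in all, to between -0.51 without K27R replicate 1 and 0.53 without K27R replicate 2. The median of R26K against H3.3, 0.17 in all, was -0.17 with the GC and length correction. Upper-quartile scaling shifted the median of all tested genes by -0.20 in R26K against H3.3 and by 0.22 in K27R against R26K, and the members' medians became -0.02 and 0.25. The log2 fold changes printed for single genes kept their sign, but the GC and length correction cut some by more than 1.5 times: in R26K against H3.3 Kif18a to -0.85, Pcnt to 0.75 and Kifc3 to 1.52, and in K27R against R26K Kif18a to 0.40 and Cenpo to -0.55. The lower bounds given for genes without a count in 1 group were not recomputed under other settings. Summing Kifc1 with Kifc5b was chosen after seeing the data.

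Same-numbered libraries did not deviate together (correlations of 0.008, -0.019 and 0.065 over 2857 genes), so that this measure showed no pairing by number. It cannot exclude pairing, because wide replicate differences, as given above for K27R and H3.3, could hide a shared deviation. With the replicate block, 1 member was called lower in K27R against R26K (Pcnt, log2 fold change -3.10, adjusted p = 0.0203), Kifc3 outside the 49 was called higher in R26K against H3.3 (4.96, adjusted p = 0.0365), and the median of R26K against H3.3 was 0.52. With the block and the GC and length correction together, 1 member was called lower in R26K against H3.3 (Cenpn, -1.18, adjusted p = 0.032) and 1 in K27R against R26K (Pcnt, -2.30, adjusted p = 0.0444).

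Counts over the whole table moved more. In R26K against H3.3, edgeR called 43 genes higher and 23 lower, against 1218 and 426 by DESeq2, 195 and 65 with the block, 178 and 63 without a filter, 3 and 13 with the GC and length correction, and 0 and 0 in the fit of only those 2 groups. In K27R against R26K it called 18 and 22, against 249 and 510 by DESeq2, 61 and 134 with the block, and 0 and 0 without either K27R library. In K27R against H3.3 it called 0 and 0, with 645 higher and 114 lower at an unadjusted p under 0.05, against 533 and 152 by DESeq2.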
